A study of Mus musculus with 4 samples.

Results

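The genes described here are 10 genes of fatty acid and sterol synthesis and its control in mouse liver: Srebf1, Srebf2, Mlxipl, Insig1, Thrsp, Fasn, Acaca, Acacb, Scd1, and Rai1, which adjoins Srebf1. They are described by the CpGs inside each gene and within 10 kb on either side (build mm10), with reads of both strands summed and a minimum of 10 reads in each of the libraries. The rule left 2093 CpGs of the 1600691 that passed this minimum in the whole series, 0.131%, and of 3383 listed in these regions in any library. DNA was taken from liver of 6-week-old C57BL6/N mice and profiled by reduced representation bisulfite sequencing, which cuts the genome with restriction enzymes and reads methylated cytosines as unconverted. There were 2 libraries from Pnpla7+/+ mice (WT) and 2 from Pnpla7-/- mice (KO), which lack the lysophospholipase Pnpla7. Whether the 2 libraries of each genotype are from different mice is not stated in the labels, and p-values therefore cover only the spread between libraries, which may be technical. Whole liver holds several cell types, and a difference in methylation cannot be told apart from a difference in their shares.

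Reads over cytosines numbered 50413170 to 60535892 in the 4 libraries. At the CpGs of the 10 genes the median depth was 23, 29, 30 and 28 reads in WT replicates 1 and 2 and KO replicates 1 and 2. Around the starts of marker genes, the sampled CpGs covered 3 of 10 hepatocyte genes, 2 of 6 leukocyte genes, 2 of 4 cholangiocyte genes and 1 of 4 stellate and endothelial genes, too few to check the tissue by. In WT the hepatocyte genes Serpina1a and Fgb measured 63.9% and 14.3%. Hnf4a measured 11.8% at its start at 163506857 (3 CpGs) and 7.62% at 163547155 (13 CpGs). The leukocyte genes Cd3e and Cd79a measured 78.2% and 94.5%, the cholangiocyte genes Epcam and Krt7 22.4% and 28.2%, and the endothelial gene Kdr 3.01%. The groups did not overlap at Serpina1a, which measured 75.5% in KO, or at Epcam and Kdr, which measured 15.1% and 1.95% in KO. They were also apart at both starts of Hnf4a, in opposite directions. KO measured 9.32% at 163506857, lower than WT, and 11.8% at 163547155, higher than WT. The part of these marker differences in the results below was not tested.

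The SREBP proteins, encoded by Srebf1 and Srebf2, are membrane-bound transcription factors that are cut and released to the nucleus when sterols are low or insulin signals. Insig1 holds them in the endoplasmic reticulum. Mlxipl encodes ChREBP, the carbohydrate-responsive factor that acts beside SREBP-1c on the same lipogenic enzymes: acetyl-CoA carboxylases (Acaca, Acacb), fatty acid synthase (Fasn) and stearoyl-CoA desaturase (Scd1). Rai1 encodes a nuclear regulator of transcription that is not a lipogenic factor and is included for its position.

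Promoter sequences are shown because the starts of these genes are where the factors of the pathway are known to act, and because the measured CpGs there can be set beside the tiles that differed elsewhere. The 250 bases before each start, from RefSeq on GRCm38.p6 (mm10), are written 5′ to 3′ on the gene's strand, and capitals mark the measured CpGs, those that met the read minimum. Entries matched 9 of the 10 genes, all but Scd1. The first start shown for Srebf1 lies inside the gene and is the one known for SREBP-1c, the main form in liver, at chr11:60210472-60210721 on the minus strand. The middle one, chr11:60220628-60220877 (minus), and the outer one, chr11:60222582-60222831 (minus), belong to longer transcripts.
Srebf1, internal start: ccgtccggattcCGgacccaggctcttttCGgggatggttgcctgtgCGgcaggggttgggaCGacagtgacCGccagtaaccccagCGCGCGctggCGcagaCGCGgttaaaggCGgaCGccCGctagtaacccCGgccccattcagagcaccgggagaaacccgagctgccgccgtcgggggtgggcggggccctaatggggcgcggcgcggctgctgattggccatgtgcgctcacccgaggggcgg
Srebf1, middle start: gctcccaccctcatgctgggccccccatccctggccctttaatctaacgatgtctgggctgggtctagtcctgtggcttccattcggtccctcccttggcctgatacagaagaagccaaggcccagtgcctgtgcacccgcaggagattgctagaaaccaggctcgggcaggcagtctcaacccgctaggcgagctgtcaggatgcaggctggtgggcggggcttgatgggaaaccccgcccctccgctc
Srebf1, outer start: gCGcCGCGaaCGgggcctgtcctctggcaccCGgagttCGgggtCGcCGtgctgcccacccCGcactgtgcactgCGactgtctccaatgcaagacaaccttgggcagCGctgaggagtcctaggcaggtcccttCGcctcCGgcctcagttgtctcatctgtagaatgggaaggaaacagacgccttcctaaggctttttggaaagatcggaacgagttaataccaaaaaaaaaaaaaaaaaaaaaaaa

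The measured part of the SREBP-1c promoter was unmethylated in every library. In the window from 250 bases before to 50 bases after this start, 15 CpGs measured 0.41% and 0% in WT and 0.865% and 0.443% in KO. Each value came from 244 to 451 reads, of which 0 to 3 were methylated. A search of both strands found AGTAACC, part of the known binding site of the oxysterol receptor LXR, at 2 places in this window, and 2.25% of 32851 promoter windows of that length hold it. This motif was added after the sequences were seen. CCAAT, bound by NF-Y, was found 1 time (37.4% of windows hold it), and GGGCGG, a GC box, 2 times (35.7%). TCACNCCAC, the core of the sterol response element as searched here, was not found in these letters (1.24% of windows hold it). At the outer start 13 CpGs measured 1.31% and 1.98% in WT and 1.71% and 1.21% in KO, and at the middle start the 1 CpG measured 0% in all 4 libraries. Among all 11291 promoter windows with at least 3 measured CpGs, 85.9% were below 5%, so the level at Srebf1 starts was the usual one.

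The values that led to this choice of genes were those of a 1-kb tile inside Rai1, beside Srebf1, and of the window around that end of Srebf1. They are therefore given as a description, with no test. The tile, chr11:60198001-60199000, measured 45.7% and 38.6% in WT and 77.7% and 65.5% in KO, from 164 to 224 reads. Both KO libraries lay above both WT libraries, with means of 42.2% ± 5.01 and 71.6% ± 8.61 (SD, n = 2), a difference of 29.4 points. It lies in Rai1 and ends 84 bp from the lower end of Srebf1, which is the 3′ end since Srebf1 is on the minus strand. Both genes point towards each other and their ends overlap by 114 bp. The SREBP-1c start is 11.5 kb away.

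The reads counted in that tile came from 5 CpGs within 45 bp, so they share fragments and do not count as separate measurements. The CpG at 60198142 measured 46.3% and 34.6% in WT and 76.8% and 81.4% in KO. At 60198158 the values were 40% and 31.4% in WT and 74.5% and 69% in KO. The groups did not overlap at 4 of the 5 CpGs. The exception was the CpG at 60198123, where WT measured 40.9% and 17.9% and KO 71.8% and 27.3%. Without the CpG at 60198142 the difference of the tile was 26.3 points, a value that also rests on the selecting reads and is no check of them. Another 6 CpGs of the tile, with 3 to 13 reads each and so outside the read minimum, gave 10.5% and 36% in WT and 58.3% and 48.4% in KO when pooled.

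**Figure D1:**
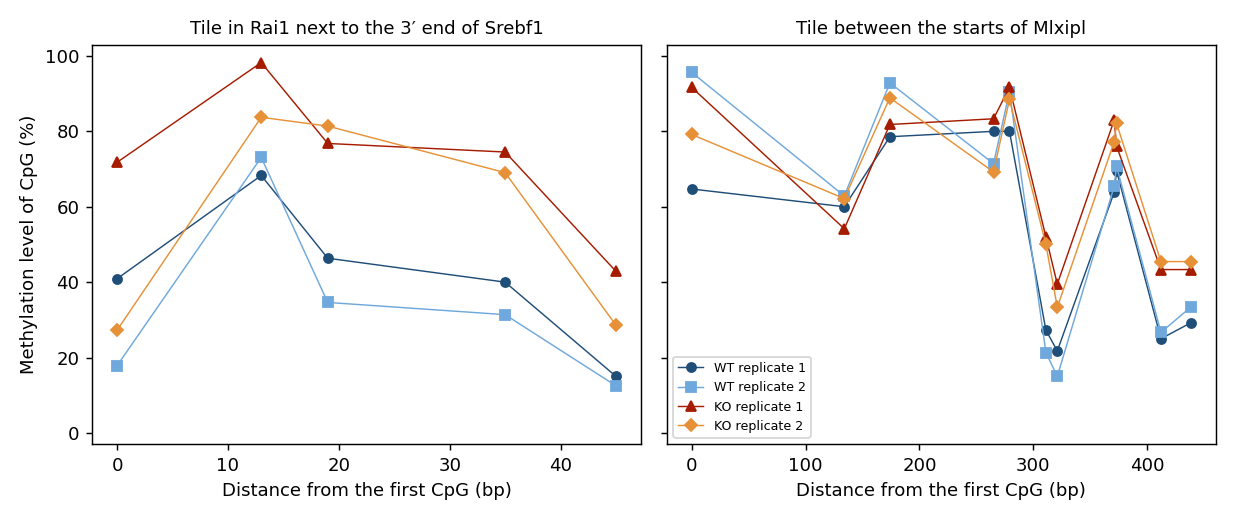
Methylation level (%) of single CpGs against distance from the first CpG (bp), in the tile of Rai1 beside the 3′ end of Srebf1 (left) and the tile between the starts of Mlxipl (right), with 1 point for each library; lines only join neighbouring CpGs. On the left KO lies above WT at 4 of 5 CpGs, and on the right at the last 6 CpGs and at 0 of the first 5.

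Srebf1 (chr11:60199084-60224186, 211 CpGs) is described tile by tile, also with no test, since the window that led to its choice lies in it; no other tile of its region was called in the genome-wide fit given below. From that tile through the gene there were 8 tiles with a mean level of at least 20%, and 7 of them had a higher mean in KO. In 6 of the 8 both KO libraries lay above both WT libraries (KO above WT), and in 0 below. Across all 45320 tiles of the genome with a mean level of 20% to 80%, KO lay above WT in 22.2% and below in 14.6%, and across all 163610 tiles tested in 19.5% and 14.9%. Since the tiles of Srebf1 include the selecting values, nothing is read from their count against these shares. Without the tile in Rai1, the other 7 differed by -5.02 to 8.01 points, with a median of 4.67, and KO lay above WT in 5.

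The tile at 60200001, near the 3′ end, measured 72.6% and 73.8% in WT and 83.8% and 78.7% in KO. Deeper in the gene, the tile at 60205001 measured 79.6% and 81.5% in WT and 88.7% and 88.3% in KO. The groups were apart in both. At 60203001, which held 15 CpGs and at least 555 reads in each library, WT measured 65.9% and 66.3% and KO 71.2% and 70.4%. The groups overlapped in the tile at 60206001, with 63.8% and 59.8% in WT and 76.8% and 62.8% in KO.

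On the far side of the SREBP-1c start, the tile at 60211001 measured 63.6% and 59.9% in WT and 65.1% and 64.7% in KO. Among the tiles of the gene that hold no start, the next, at 60212001, was the 1 with a lower mean in KO. It measured 78.4% and 70.8% in WT and 67.4% and 71.7% in KO, with overlapping groups. A pair of tiles past the upper end of Srebf1, in Tom1l2, differed by -10.6 and -9.22 points on average, again with overlapping groups. On the other side, the 4 tiles inside Rai1 before the differing tile measured at least 89.6% in every library and differed by -1.71 to 2.34 points. Over the whole Srebf1 region each CpG counted equally, the means were 46.3% and 46.4% in WT and 48.5% and 47.1% in KO. Weighted by reads, the same region measured 46.7% and 44.9% in WT and 45.6% and 45.1% in KO, so the difference changed from 1.42 to -0.49 points with the weighting.

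**Figure D2:**
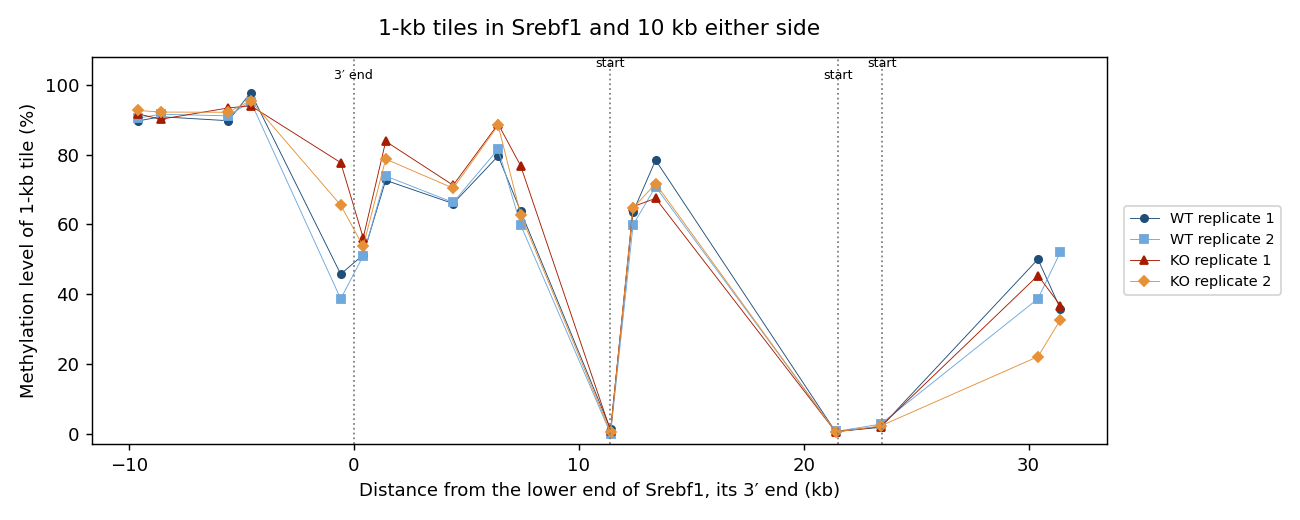
Methylation level (%) of 1-kb tiles against distance from the 3′ end of Srebf1 (kb), 1 line for each library, with dotted lines at the 3′ end and at the 3 starts; lines only join neighbouring tiles. The tile just left of the 3′ end measures 45.7% and 38.6% in WT and 77.7% and 65.5% in KO, and the tiles at the starts are below 3% in every library.

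Rai1 (chr11:60104917-60199197, 485 CpGs) showed no such shift over its length. Its mean over CpGs was 32.7% and 32.3% in WT and 32.8% and 32.4% in KO, with overlapping groups. The tile at its start, with 100 CpGs, measured 0.485% to 0.942%. In the next tile, at 60106001 with 32 CpGs, KO lay below WT, at 0.656% and 0.354% in WT and 0.243% and 0.156% in KO. Among 5 CpG-dense tiles of low level inside the gene and away from its start, KO lay below WT in 2 and above in 0. The shares of all tiles tested were 14.9% and 19.5%. In 1 of those 2, at 60140001, WT measured 17.8% and 15.5% and KO 9.79% and 14.0%. The tile of Rai1 that was lowest in KO against WT, at 60177001, measured 45.3% and 46.7% in WT and 20.9% and 38.0% in KO, from as few as 75 reads. Of the 35 tiles tested in the regions of Srebf1 and Rai1, KO lay above WT in 8 and below in 8 (22.9% each). The shares of all tiles tested were 19.5% and 14.9%, and since the 35 include the selecting values, nothing is read from this.

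The other 8 genes were not chosen by a measured difference of their own, but their list was made with earlier results of these data known. The genome-wide model was read as a test for them with that limit. Methylated and unmethylated reads of every tile in the genome were fitted with a quasi-binomial model whose spread was moderated with limma, with Benjamini-Hochberg adjustment over all of them. A call needed an adjusted p under 0.05 and 10 or more points between the genotype means. The model called 143 of 163610 tiles, 0.0874%, of which 109 were higher in KO, 0.0666%. Of the 147 tiles of the 8 genes it called 0, with 14 at unadjusted p under 0.05, against 10328 of the 163610 tiles in the genome. By Fisher's exact test on pooled reads, which ignores the spread between libraries, 2 were called (1.36%), against 1216 tiles in the genome (0.743%). By limma on log2 ratios 0 were called, as in the genome (0%). The lowest adjusted p from the moderated model was 0.137. In these tiles KO lay above WT in 36 (24.5%) and below in 18 (12.2%), against 19.5% and 14.9% of all tiles tested. The median difference was 0.5 points, against 0.177 over all tiles.

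**Figure D3:**
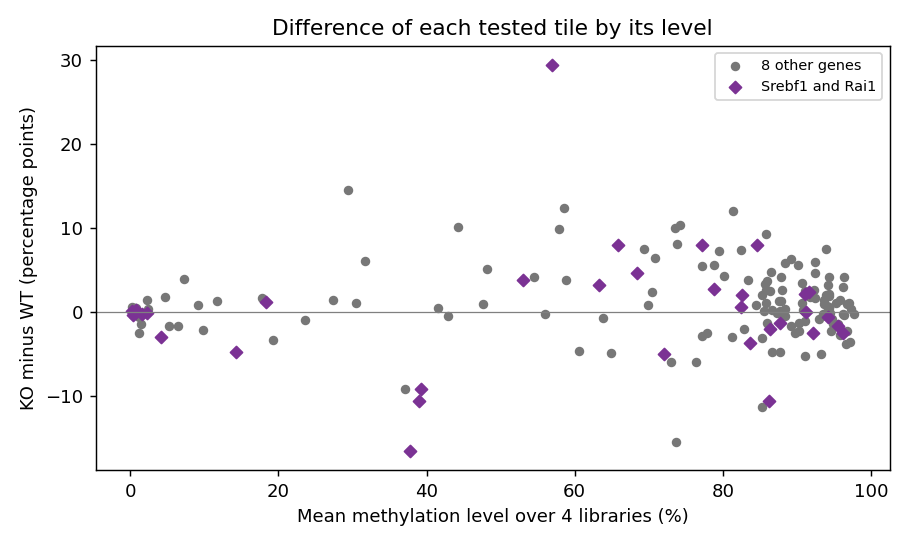
Difference between genotypes (KO minus WT, percentage points) against the mean methylation level over the 4 libraries (%) for each tested tile; diamonds are tiles of Srebf1 and Rai1, whose values chose the genes, and circles those of the 8 other genes. The diamond at 29.4 points is the tile in Rai1, and the circles span -15.5 to 14.6 points.

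Among the regulators, Mlxipl (chr5:135089890-135139768, 189 CpGs) had means over CpGs of 44.2% and 44.6% in WT and 45.9% and 46.8% in KO, which did not overlap. Weighted by reads the groups did overlap, at 40% and 43.1% in WT and 41.8% and 44.0% in KO (adjusted p = 0.988 in the moderated model), and the difference went from 1.30 to -0.24 points without WT replicate 1. The gene has a pair of annotated starts 17001 bp apart. The upstream one, known for the short form ChREBP-beta, lies before chr5:135089890, and the downstream one, known for the full-length ChREBP-alpha, before chr5:135106891. Their 250 upstream bases, chr5:135089640-135089889 and chr5:135106641-135106890 on the plus strand, are shown because the tile that differed lies between them.
Mlxipl, upstream start: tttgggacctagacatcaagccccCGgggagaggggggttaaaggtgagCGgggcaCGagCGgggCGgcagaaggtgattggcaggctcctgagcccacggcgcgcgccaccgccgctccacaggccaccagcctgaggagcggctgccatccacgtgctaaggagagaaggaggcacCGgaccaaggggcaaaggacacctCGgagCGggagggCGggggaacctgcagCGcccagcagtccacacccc
Mlxipl, downstream start: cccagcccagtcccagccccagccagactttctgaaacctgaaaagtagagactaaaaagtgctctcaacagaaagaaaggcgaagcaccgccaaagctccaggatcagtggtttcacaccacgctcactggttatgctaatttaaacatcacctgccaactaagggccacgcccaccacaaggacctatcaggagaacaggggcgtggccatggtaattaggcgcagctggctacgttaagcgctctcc

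In the window of the upstream start, 11 CpGs measured 2.05% and 2.46% in WT and 0.656% and 0.904% in KO, or 2 to 6 methylated reads in each library. That window held CACGTG, an E box, 1 time (7.15% of promoter windows hold it). The window of the downstream start held TCACNCCAC 1 time and had no CpG with enough reads. The tile around it, at 135106001, measured 6.07% and 4.5% in WT and 8.08% and 10.2% in KO (adjusted p = 0.75 in the moderated model).

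The tile between the starts, chr5:135100001-135101000, was the one nearest to a call in the 8 genes. It measured 51.5% and 53.2% in WT and 64.7% and 64.9% in KO, with 262 to 395 reads. The means were 52.3% ± 1.16 and 64.8% ± 0.146 (SD, n = 2), a difference of 12.4 points, and its adjusted p in the moderated model was 0.137. It did not pass; over its alternatives adjusted p ran from 0.00119 by Fisher's exact test, the 1 alternative that called it, to 0.969. The tile begins 10111 bp after the upstream start and ends 5891 bp before the downstream one.

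Within this tile the difference lay at one end. The last 6 of its 11 CpGs, within 127 bp, measured 44.1% and 42.3% in WT and 60.4% and 59.1% in KO, and KO lay above WT at each. The first 5 measured 69.7% and 79.8% in WT and 78.3% and 75.6% in KO, and the groups overlapped at each. The split was made after the values were seen. Of the 11 Mlxipl tiles of 20% to 80% mean level, 8 had a higher mean in KO, with KO above WT in 6 and below in 2, and a median difference of 5.56 points. Over all tiles of that level 55.9% had a higher mean in KO. KO lay above WT in 22.2% of them and below in 14.6%, with a median difference of 0.847 points. The Mlxipl tile of that level with the most CpGs, 15 at 135114001, measured 74.7% and 77.3% in WT and 80.3% and 82.8% in KO (adjusted p = 0.592).

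**Figure D4:**
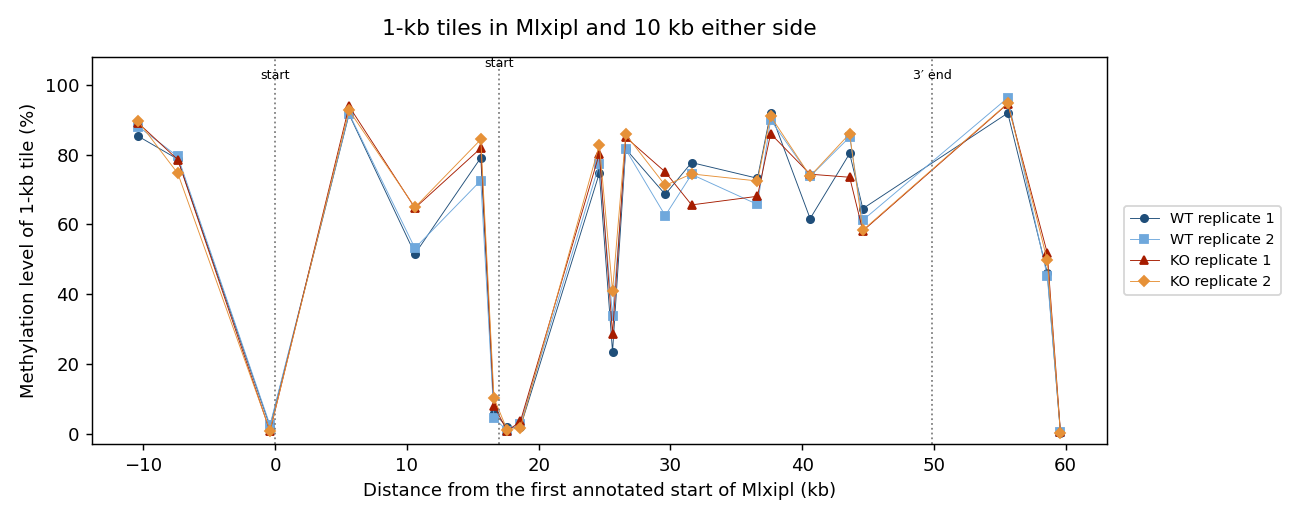
Methylation level (%) of 1-kb tiles against distance from the upstream start of Mlxipl (kb), 1 line for each library, with dotted lines at both starts and at the 3′ end; lines only join neighbouring tiles. The tile about 10 kb after the upstream start measures 51.5% and 53.2% in WT and 64.7% and 64.9% in KO, and the tile holding each start is at or below 10.2% in every library.

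Srebf2 (chr15:82147269-82205379, 330 CpGs), the main regulator of cholesterol synthesis, gave overlapping means of 35.8% and 33.6% in WT and 34.6% and 34.4% in KO. Its start tile, with 64 CpGs, measured 0.368% to 1.02%. The tile with at least 100 reads in every library that differed most, at 82207001, lies past its 3′ end in Shisa8 and measured 26.6% and 15.4% in WT and 16% and 19.3% in KO (adjusted p = 0.865). Shallower tiles differed more in both directions. The one at 82164001 measured 76.1% and 86.8% in WT and 62.9% and 68.9% in KO, and the one at 82199001 measured 76.8% and 74% in WT and 90% and 84.8% in KO. Their groups did not overlap, but they rested on as few as 46 and 70 reads and neither passed, with adjusted p of 0.73 and 0.725. Srebf2 sits in a stretch of chromosome 15 with 34 CpGs at or below 10% in WT and at or above 70% in KO, from 73474421 to 86723329. None of these 34 was in the Srebf2 region, the nearest being 959 kb away.

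Insig1 (chr5:28071412-28078662, 92 CpGs) had the lowest mean of the 10 genes, 14.1% and 15.3% in WT and 15.4% and 15.5% in KO. Weighted by reads the levels were 12.9% and 12.7% in WT and 12.5% and 12.8% in KO, with overlapping groups. Of its 92 CpGs, 70 lie within 500 bp of the start, where levels were low. The start tile, with 66 CpGs, measured 0.172% to 0.871%. In the gene body the tile at 28076001 measured 72.6% and 76.4% in WT and 77% and 82.7% in KO, a difference of 5.43 points (adjusted p = 0.866). A single CpG of that tile, at 28076740, measured 43.5% and 65.2% in WT and 94.4% and 100% in KO, from 18 to 23 reads. It was not called by the moderated model as written, but it was by limma on log2 ratios (adjusted p = 0.0246) and by Fisher's exact test (adjusted p = 0.00762).

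Thrsp (chr7:97412933-97417550), a small lipogenic protein induced by thyroid hormone and carbohydrate, was thinly sampled: 9 of 36 listed CpGs had enough reads, all outside the gene body. Its promoter, chr7:97417551-97417800 (minus), had no CpG in capitals.
Thrsp: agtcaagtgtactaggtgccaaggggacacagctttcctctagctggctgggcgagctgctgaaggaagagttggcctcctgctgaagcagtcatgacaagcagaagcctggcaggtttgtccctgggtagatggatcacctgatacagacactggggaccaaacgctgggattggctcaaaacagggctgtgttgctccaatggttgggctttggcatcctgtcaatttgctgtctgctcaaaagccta

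Its window from 250 bases before to 50 after the start holds 4 CG, against a median of 7 over all windows, and 1 CCGG, the MspI site. The 9 CpGs had means of 31.7% and 29.1% in WT and 35.5% and 36.9% in KO, which did not overlap. Weighted by reads they did, at 38.3% and 36.4% in WT and 36.9% and 45.7% in KO. The groups were apart in 1 tile, at 97419001, with 53% and 52.8% in WT and 59.3% and 66.3% in KO (adjusted p = 0.835, as few as 98 reads). The other tile, at 97425001, measured 0% in all 4 libraries.

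Of the enzymes, Fasn (chr11:120805958-120825166, 330 CpGs) has the densest measured promoter and is shown at chr11:120824548-120824797 on the minus strand.
Fasn: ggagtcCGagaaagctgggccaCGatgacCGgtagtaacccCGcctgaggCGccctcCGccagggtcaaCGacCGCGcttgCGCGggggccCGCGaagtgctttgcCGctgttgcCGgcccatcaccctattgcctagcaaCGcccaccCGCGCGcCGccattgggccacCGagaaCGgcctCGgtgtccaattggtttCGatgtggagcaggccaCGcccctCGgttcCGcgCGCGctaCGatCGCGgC

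The Fasn window held 35 measured CpGs at 1.33% and 0.761% in WT and 0.272% and 0.274% in KO, from 1050 to 1473 reads in each library. It also held CCAAT 3 times. The start tile, with 107 CpGs, measured 0.568% to 1.16%, and over the gene the means overlapped, at 28.1% and 29.2% in WT and 29.5% and 29.0% in KO. Differences lay toward and past the 3′ end. The tile at 120804001, past that end, measured 14.4% and 29.7% in WT and 37.3% and 36% in KO, with means of 22.1% ± 10.9 and 36.6% ± 0.878 (SD, n = 2). The groups were apart, but the WT libraries differed more from each other than WT replicate 2 did from either KO library (adjusted p = 0.531; Fisher's exact test on pooled reads gave 0.0197). Further out, at 120802001, WT measured 79.1% and 83.1% and KO 90.3% and 90.6% (adjusted p = 0.395). Inside the gene, at 120810001, WT measured 83% and 89.1% and KO 92.7% and 92% (adjusted p = 0.519). In each of these 3 tiles both KO libraries were above both WT libraries. In 2 tiles past the same end KO lay below WT. At 120800001 WT measured 0.833% and 4.24% and KO 0% and 0%. At 120796001, in Dus1l, WT measured 6.52% and 5.70% and KO 3.82% and 4.99% (adjusted p = 0.711 in the moderated model for both).

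Acaca (chr11:84129635-84401651, 150 CpGs), the cytosolic carboxylase, had means of 36.1% and 36.5% in WT and 37.2% and 35.6% in KO. Its 3 tiles below 20% measured 0.221% to 1.34%, and its 10 tiles above 80% differed by -4.78 to 4.12 points. With at least 100 reads in every library, the tile that differed most, at 84376001, measured 91.9% and 94.9% in WT and 97.5% and 93.2% in KO, with overlapping groups (adjusted p = 0.933). Weighted by reads, the region measured 33.7% and 29.8% in WT and 26.6% and 28.7% in KO, so KO lay below WT. That difference of -4.07 points had an unadjusted p of 0.0262 and an adjusted p of 0.988 in the moderated model. It was absent from the mean over CpGs, which differed by 0.0765 points.

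Acacb (chr5:114146321-114250761, 294 CpGs), the mitochondrial carboxylase that restrains fatty acid oxidation, was the most methylated of the 10, at 73.8% and 73.1% in WT and 73.6% and 73.4% in KO. The 4 means lay within 1 point, and 31 of its 43 tiles were above 80%. Among its tiles with at least 100 reads in every library, the one that differed most, at 114206001, measured 91.7% and 83% in WT and 91.6% and 94.2% in KO, with overlapping groups (adjusted p = 0.734). Its 3 CpGs within 500 bp of an annotated start had a mean of 85.9%. In the 7 other regions with such CpGs, counting starts of any gene in the region, those means were 0.467% to 2.09%. The annotated start of Acacb, at 114165518, lies inside the gene. The tile over the 5′ end of Acacb, at 114146001, measured 3.47% and 14.0% in WT and 8.97% and 10.3% in KO.

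Scd1 (chr19:44394450-44407709, 104 CpGs), the desaturase that makes oleate, had overlapping means of 44.4% and 46.1% in WT and 47% and 45.2% in KO. Tiles on either side of its upper end measured 0.15% to 1.13%. In the gene, the tile at 44402001 measured 83.7% and 87.2% in WT and 90.2% and 92.4% in KO, a difference of 5.88 points with the groups apart (adjusted p = 0.703). Of its 5 tiles above 20% inside the gene, 4 had a higher mean in KO, as did 54% of all tiles tested.

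Set side by side, the means over CpGs were higher in KO in 9 of the 10 genes, all but Srebf2. KO lay above WT in 4, namely Srebf1, Mlxipl, Insig1 and Thrsp, and below in 0, against 24.6% and 13.9% of 31633 gene regions. Srebf1 was chosen partly on these values, and Thrsp, with 9 CpGs, is under the minimum of 10 CpGs that those regions met. With reads weighted equally instead, the level was higher in KO in 3 genes (Mlxipl, Acacb and Thrsp) and lower in 7, and KO lay above WT in 0 and below in 1 (Acaca), against 17.6% and 16.1% of gene regions. The direction over the 10 genes thus depended on the weighting. The level differed far more between genes than between genotypes, from 14.1% to 15.5% at Insig1 up to 73.1% to 73.8% at Acacb. Neighbours in that order were not all separate. The 4 values of Thrsp (29.1% to 36.9%) overlapped those of Fasn (28.1% to 29.5%), Rai1 (32.3% to 32.8%), Srebf2 (33.6% to 35.8%) and Acaca (35.6% to 37.2%). Those of Srebf2 and Acaca also overlapped each other, as did those of Srebf1, Mlxipl and Scd1 (44.2% to 48.5%). Weighted by reads, the model called 0 of the 9 gene regions it tested, with 1 (Acaca) at unadjusted p under 0.05. It called 0 of 31633 (0%) in the genome. Fisher's exact test called 1 of the 9 (11.1%), Acaca, against 9.83% of all regions, and limma 0, against 0%.

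**Figure D5:**
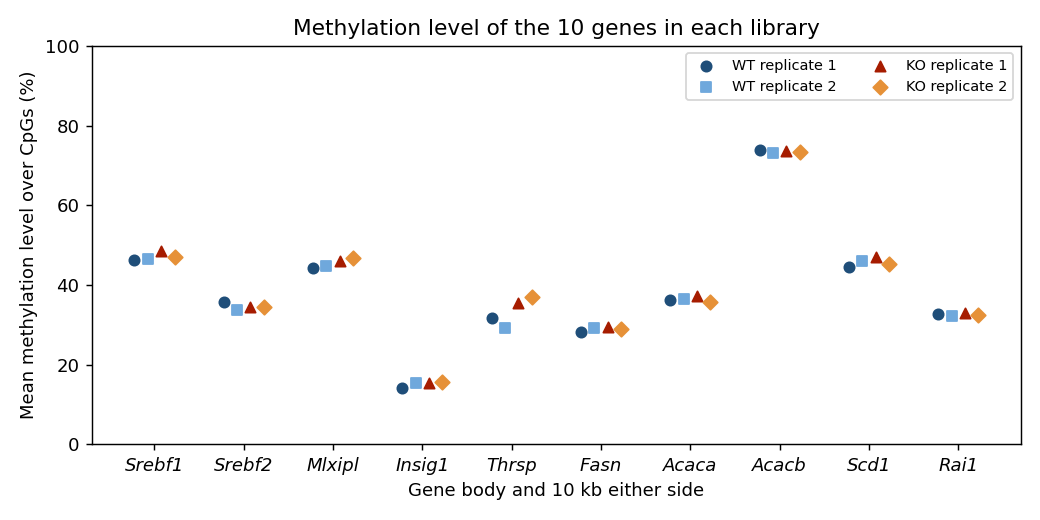
Mean methylation level over CpGs (%) of each gene and 10 kb either side, with 1 point for each of the 2 WT and 2 KO libraries. Insig1 is lowest, at 14.1% to 15.5%, Acacb highest, at 73.1% to 73.8%, and the groups do not overlap in Srebf1, Mlxipl, Insig1 and Thrsp.

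At single CpGs the moderated model called 0 of 1165 in the 8 genes other than Srebf1 and Rai1, with 55 at unadjusted p under 0.05. In all 10 regions, which include the selecting values, it called 0 of 1573, with 79 under 0.05. It called 9 of 1263975 in the genome (0.000712%). CpGs under unadjusted 0.05 were not counted over the genome, so nothing is read from those counts. Fisher's exact test called 1 in the 8 genes (0.0858%) and 3 in the 10 regions (0.191%), against 508 in the genome (0.0402%). Limma called 1 in the 8 genes (0.0858%), the only 1 in the 10 regions, against 192 in the genome (0.0152%). Of the 3 CpGs, those at 60198142 and 60198158 lie in the tile that led to the choice of genes, and the other is the one in Insig1. Of 10 tiles holding an annotated start of the genes themselves, in 7 genes, 9 were below 20%. The exception was that of Acacb, which lies inside the gene and not at its 5′ end. These 9 measured 0% to 10.2% and differed by -1.47 to 3.87 points. No tile with 3 measured CpGs held an annotated start of Acaca, Scd1 or Thrsp. Differences of more than 10 points lay in tiles away from the starts. Of the member CpGs 53.5% were below 20% and 13.4% between 20% and 80%, against 45% and 18.6% of all CpGs. In the 34 tiles of 20% to 80% in the 8 genes other than Srebf1 and Rai1, KO lay above WT in 12 (35.3%) and below in 3 (8.82%). The matching shares for all such tiles were 22.2% and 14.6%.

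Of 43 other genes of the pathway, drawn from sterol and carbohydrate control, fatty acid and triglyceride synthesis and cholesterol synthesis, the model called 3 of 502 tiles (0.598%), all higher in KO, against 0.0874% of all tiles called and 0.0666% called higher. This list too was made with earlier results of these data known, so nothing is read from its share against those of the genome. The median difference was 0.158 points, against 0.177 over all tiles. In Fads1, the delta-5 desaturase of polyunsaturated fatty acids, the tile chr19:10188001-10189000 measured 28.2% and 33% in WT and 55.1% and 56.5% in KO. That was a difference of 25.2 points (adjusted p = 0.00201 in the moderated model). Within 10 kb of Usf2, a factor that binds E boxes of lipogenic genes, the tile chr7:30941001-30942000 measured 57% and 57.3% in WT and 89.7% and 84.4% in KO, a difference of 29.9 points (adjusted p = 0.0118). It overlapped no annotated gene and held 3 CpGs. Usf2 itself spans chr7:30945248-30956951, and whether another gene lies nearer to the tile was not examined. Limma on all 4 libraries called 0 of the 502, as in the genome (0%). The calls of the list did not hold in the same model with 1 library left out. Calls over all tiles were then nearly absent too, so this is not particular to the list.

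The gene regions whose read-weighted levels in the 4 libraries were most like those of Srebf1, by Euclidean distance among 31633 regions, were Slc8b1 (distance 0.342 points), Cep131 (0.635) and Gm30093 (0.828). Slc8b1 measured 46.5% and 44.8% in WT and 45.8% and 45.2% in KO.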

How the data were processed

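Per the labels' protocols, liver DNA was digested with the enzymes TaqI and MspI, then converted with bisulfite and amplified. The authors deposited, for each of the 4 libraries, 1 file of levels and 1 of depths per cytosine on mm10, which name GBSA per the file headers. BWA 0.7.12 and MACS stand in the submitters' processing notes with no role. In these other values, as deposited, a level is a fraction from 0 to 1 with a minus sign on the reverse strand, and so is the depth signed. Level times depth was whole at 100% of positions (tolerance 1e-06) and gave methylated reads.

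Reads of both strands were summed per CpG, per 1-kb tile with at least 3 CpGs, and per gene region with at least 10. For a CpG with 5 of 10 reads methylated, the 95% interval (exact Clopper-Pearson) is 18.7% to 81.3%, and 0 of 10 allows up to 30%; these limits hold for counting error only, as molecules were amplified. Gene ends and promoter sequences came from RefSeq tables on GRCm38.p6, which is mm10. All 229051 deposited positions inside promoter windows fell on CG.

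Each feature was tested in a quasi-binomial model with 2 residual degrees of freedom, its Pearson dispersion moderated with limma 3.58.1 (R 4.3.3) and held at 1 or above, and a two-sided quasi-likelihood F test; adjusted p is Benjamini-Hochberg over all features of a kind. Gene regions were called from 2 points. An exact permutation test of 2 against 2 cannot go below p = 0.333. The model was tested on simulated data. Alternatives were other coverage minimums, priors, thresholds, tile positions and tests, a block for the replicate number, and leaving out each library. The members, lists and motifs were chosen with earlier results of these data known. By rule the text names called tiles, except 1 of the pathway list that is not reported here, the tile of each gene that differed most with at least 100 reads in every library, and tiles at starts; further tiles were chosen after their values were seen. Deviations of same-numbered libraries had a correlation of -0.01 over 45320 tiles. Whether such libraries were prepared together is not stated in the labels.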

Additional observations from a re-analysis of the deposited data

How the results depend on the processing

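With 2 libraries in each genotype, leaving 1 out left 1 residual degree of freedom, and depth limited single CpGs, which had medians of 23 to 30 reads. Called tiles in the 10 regions numbered 1 in the main analysis, which is the tile in Rai1 that led to the choice of genes and so no result of a test; the count was 0 with the replicate block, 3 by Fisher's exact test, 0 by limma and 0 to 2 with a library left out. Called tiles of the pathway list numbered 3, then 0 with the replicate block, 8 by Fisher's exact test, 0 by limma and 0 to 5 with a library left out. What same-numbered libraries share is not stated in the labels, and the block too left 1 residual degree of freedom. Nothing is therefore read from its counts on the size of an effect. Called CpGs in the 10 regions numbered 0, then 3 by Fisher's exact test, 1 by limma and 0 to 1 with a library left out. Called gene regions numbered 0, and 1 by Fisher's exact test (Acaca). An alternative added after seeing the data used 1 residual degree of freedom where a genotype had no or only methylated reads. It called 3 CpGs in the 10 regions and 244 tiles in the genome against 143; 509 CpGs were called in the genome against 9. The upper ends of the leave-one-out ranges come from it, and the model as written called 0 in each of these with any library left out. The tile in Rai1 beside Srebf1 differed by 23.3 points without KO replicate 1 and by 35.5 without KO replicate 2. In the genome, tile counts were 202 at 5 reads, 52 at 20 reads, 71 at a threshold of 20 points, 1216 by Fisher's exact test, 0 by limma and 0 with the block. CpG counts in the genome were 508 by Fisher's exact test and 192 by limma. Counts for the 10 regions and the pathway list stayed within 1.5 times of the main ones under the remaining alternatives.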
